A study of Saccharomyces cerevisiae with 8 samples.

Results

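Transcripts of Δpde2Δtpk3 cells (2 arrays) were set against those of wild type cells (3 arrays), which takes in 5 of the 8 Affymetrix Yeast Genome 2.0 arrays of the study. All 5498 of 5814 probe sets that are annotated to 1 yeast gene entered the comparison, and they stand for 5449 genes. A probe set is a group of short probes that reads the level of a transcript, and levels are given here on the log2 scale. Both strains are haploid MATa derivatives of BY4741 that carry his3Δ1, leu2Δ, met15Δ and ura3Δ. Δpde2Δtpk3 cells carry HIS3 in place of PDE2 and KanMx in place of TPK3, so that they lack the high affinity cAMP phosphodiesterase and the protein kinase A catalytic subunit Tpk3p. Every culture, wild type included, grew for 24 h in YPD, a rich glucose medium, with 4 mM cAMP. The remaining 3 arrays are of Δpde2 cells (PDE2 replaced by KanMx) grown in the same way, and they are used for the estimate of spread and for values set side by side. Each genotype is 1 strain, the double mutant has another origin than the wild type, and effects of marker, origin and deletion cannot be told apart. The sources do not say that the wild type arrays came from separate cultures, so p-values measure the spread between these arrays, which may be technical.

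In budding yeast cAMP binds Bcy1p, the regulatory subunit of protein kinase A (PKA), and sets free its catalytic subunits, Tpk3p among them, while the phosphodiesterases Pde1p and Pde2p break cAMP down. PKA activity favours growth on glucose and holds down stress genes under Msn2p and Msn4p, the storage of glycogen and trehalose, and the entry into stationary phase. After glucose is used up, at the diauxic shift, wild type cells turn to the respiration of ethanol and prepare for quiescence. The comparison asks which transcripts differ from wild type in cells that cannot clear cAMP with Pde2p and have no Tpk3p.

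The array of wild type replicate 1 differed from the rest. Its correlation with wild type replicates 2 and 3 across genes was 0.868 and 0.878, against 0.992 between those replicates and 0.977 between the Δpde2Δtpk3 arrays (genes are not independent replicates). In wild type replicate 1 the median of 4 α-specific genes lay 1.75 above the other wild type arrays, that of hypoxic and seripauperin genes 1.16 above and that of ribosome biogenesis genes lay below them (a difference of -0.76). Of 7 MATa-specific genes the array medians were 11.08 to 11.52 in Δpde2Δtpk3 and 11.31 to 12.04 in wild type cells, and those of the α-specific genes 6.42 to 6.68 in Δpde2Δtpk3 and 7.18 to 9.21 in wild type cells, with the highest value in wild type replicate 1. The control probe sets for the start, middle and end of the SRB4 transcript read 8.03 to 8.40, 9.22 to 9.58 and 9.83 to 10.05 in Δpde2Δtpk3 arrays, and 5.48, 5.90 and 8.32 in wild type replicate 1 against 8.01 to 8.07, 9.22 to 9.23 and 9.84 to 9.93 in the other wild type arrays. For ACT1 the start and end probe sets read 13.84 to 13.85 and 14.07 to 14.09 in Δpde2Δtpk3 arrays, and 13.85 and 14.04 in wild type replicate 1 against 13.68 to 13.69 and 13.98 in the other wild type arrays. The part of these signals in the results below was not tested, and the counts of the gene lists are given with and without that array. Fewer cells of a type and less RNA per cell cannot be told apart in these bulk samples.

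Both deleted genes were read near the floor of the arrays in Δpde2Δtpk3 cells. PDE2 (YOR360C) was at 5.17 and 4.89 in the Δpde2Δtpk3 arrays and at 9.13, 10.73 and 9.66 in the wild type arrays, so that its log2 fold change was -4.81 (SE 0.42; limma, Benjamini-Hochberg adjusted p = 0.00412). TPK3 (YKL166C) was at 4.97 and 4.37 in the Δpde2Δtpk3 arrays and at 8.64, 8.77 and 8.66 in the wild type arrays (-4.02, SE 0.19, adjusted p = 0.000345). The arrays of both strains did not overlap for either gene. TPK3 passed whichever array was left out, and PDE2 did not pass without Δpde2Δtpk3 replicate 2 (-4.67, adjusted p = 0.0900). Signals of 4.37 to 5.17 are what these arrays read where the gene is deleted, so a level in that range gives no measure of a transcript.

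The list of PKA pathway genes holds 25 measured genes, the deleted ones included, and 4 of the 25 passed, beside 2.72% of all genes: TPK3, PDE2 and IRA1 lower and MSN4 higher. IRA1 (YBR140C), a GTPase-activating protein that turns off Ras and so adenylate cyclase, was at 11.48 and 11.24 in Δpde2Δtpk3 and at 12.13, 12.29 and 12.36 in wild type arrays (-0.90, SE 0.14, adjusted p = 0.0276). MSN4 (YKL062W), a stress transcription factor that PKA keeps out of the nucleus, was at 11.74 and 12.17 in Δpde2Δtpk3 and at 10.59, 11.09 and 10.57 in wild type arrays (1.21, SE 0.21, adjusted p = 0.0355). The groups did not overlap for either gene, as for 36.9% of all genes. MSN2, its close relative, did not pass (-0.27, 95% interval -0.75 to 0.21). The catalytic subunit TPK2 was at -0.04 (95% interval -0.36 to 0.28), the regulatory subunit BCY1 at -0.41 (-0.76 to -0.05, adjusted p = 0.198) and the low affinity phosphodiesterase PDE1 at 0.62 (0.27 to 0.97, adjusted p = 0.0769). None of these 3 passed with all arrays, and PDE1 passed without wild type replicate 1 (0.54, adjusted p = 0.0273). The median of the list was -0.16, against 0.00 over all genes. PDE1 and SKO1 passed in addition without wild type replicate 1, so that 3 members were higher and 3 lower, beside 8.77% and 9.08% of all genes. With 1 array left out IRA1 passed only without wild type replicate 1 and MSN4 only without wild type replicate 1 or 2, and their adjusted p was highest, 0.211 and 0.238, without Δpde2Δtpk3 replicate 2. The genes next to PDE2 (HAP5, VTS1, PRT1 and PRE10) and to TPK3 (KKQ8, MRP49, MCD4 and PIR1) did not pass, with log2 fold changes from -0.71 to 0.17.

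Across the genome 148 of 5449 genes passed between Δpde2Δtpk3 and wild type cells (2.72%, limma, adjusted p under 0.05). Of these, 56 were higher (1.03%) and 92 lower (1.69%) in Δpde2Δtpk3 cells, and 29 and 62 of them by at least 2 fold (91 together, 1.67%). An unadjusted p under 0.05 was reached by 1094 genes (20.1%), and the arrays of both strains did not overlap for 2013 genes (36.9%). The number that passed rests on single arrays. Without wild type replicate 1 it was 973 (17.9%), with 478 higher (8.77%) and 495 lower (9.08%), and all 148 genes were among them. With the arrays of Δpde2Δtpk3 and wild type cells fitted alone 10 genes passed, all of them lower. Leaving out Δpde2Δtpk3 replicate 1 gave 54 genes and replicate 2 gave 7. Leaving out a Δpde2 array gave 25, 35 or 27, and wild type replicate 2 or 3 gave 115 or 28. The 148 genes were picked by these same arrays, so their direction is no separate support. Omitting a Δpde2 array cannot change a difference of Δpde2Δtpk3 from wild type cells. All 148 kept their direction whichever array was left out. The 7 genes that also passed each time were CTT1, GND2, GRE1, HBT1, MIG2, TPK3 and YKL107W.

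**Figure D1:**
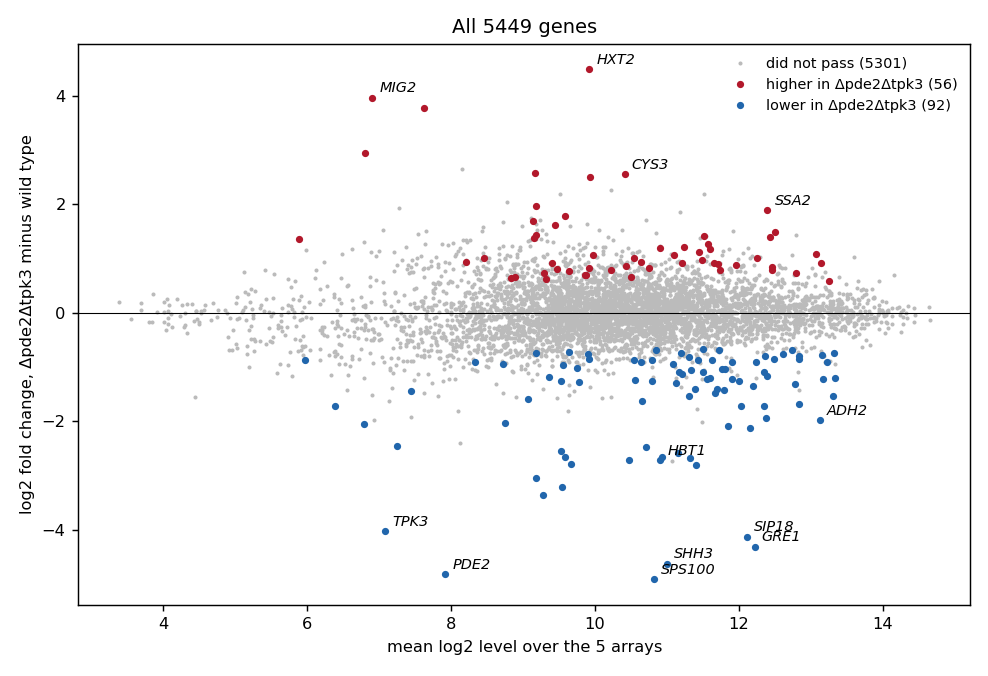
Log2 fold change of Δpde2Δtpk3 minus wild type cells (y axis) against the mean log2 level over the 5 arrays (x axis) for all 5449 genes, with the 56 genes that were higher in Δpde2Δtpk3 cells in red, the 92 that were lower in blue and the others in grey. The deleted genes PDE2 (-4.81) and TPK3 (-4.02) lie among the largest decreases, beside SPS100, SHH3, GRE1 and SIP18, while HXT2 (4.48) and MIG2 (3.96) are the largest increases.

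**Figure D2:**
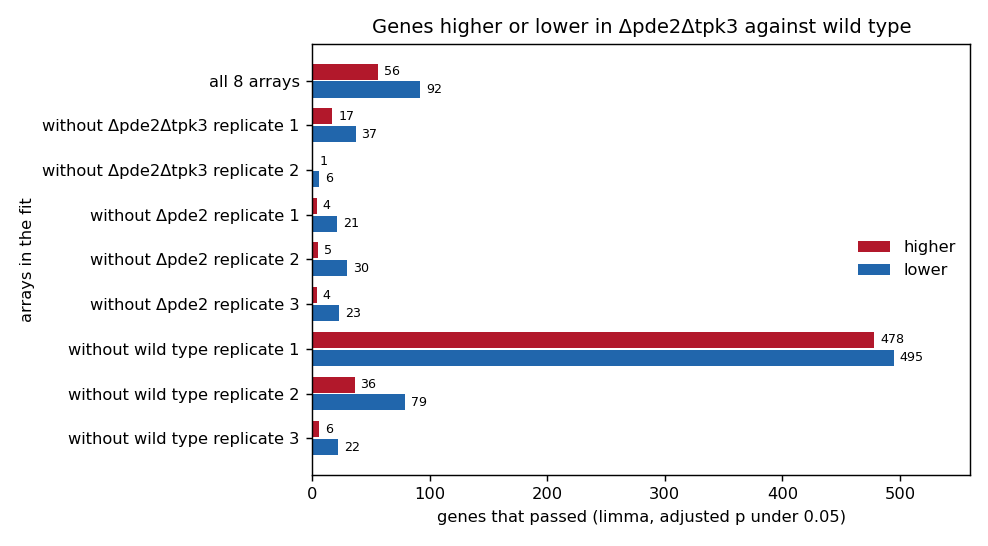
Number of genes higher (red) and lower (blue) in Δpde2Δtpk3 than in wild type cells (x axis, limma, adjusted p under 0.05) with all 8 arrays and with each array left out in turn (rows). Counts were 56 and 92 with all arrays, 478 and 495 without wild type replicate 1, and 1 and 6 without Δpde2Δtpk3 replicate 2.

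Several of the largest decreases were in genes of the quiescence and stationary phase list. SPS100 (YHR139C), a spore wall protein, was at 7.87 in both Δpde2Δtpk3 arrays, where it held the same rank, and at 13.05, 12.24 and 13.04 in the wild type arrays (-4.91, SE 0.53, adjusted p = 0.00887). GRE1 (YPL223C), a hydrophilin induced by osmotic and other stresses, was at 9.66 and 9.61 in Δpde2Δtpk3 arrays and at 14.13, 13.84 and 13.85 in wild type arrays (-4.31, SE 0.29, adjusted p = 0.00205). Its paralogue SIP18 (YMR175W), a hydrophilin that protects cells against drying, was at 9.66 and 9.61 in Δpde2Δtpk3 and at 13.24, 14.03 and 13.99 in wild type arrays (-4.12, SE 0.71, adjusted p = 0.0353). Arrays that do not overlap were required of the leading genes, here and below, so that their lack of overlap describes the choice. HBT1 (YDL223C), which shapes the mating projection, was at 9.60 and 8.96 in Δpde2Δtpk3 and at 11.99, 11.91 and 12.06 in wild type arrays (-2.71, SE 0.19, adjusted p = 0.00205). SPG1 (YGR236C), needed for survival in stationary phase at high temperature, and XBP1 (YIL101C), a repressor of growth genes that is made in stress and starvation, had log2 fold changes of -1.68 (SE 0.26) and -1.63 (SE 0.21). These 6 genes are the members of the list of quiescence and stationary phase genes that passed, all lower, of 25 measured (1.69% of all genes were lower). The median of the list was -0.25 (0.00 over all genes), and the list runs from -4.91 to 0.87. SPG4, another stationary phase gene, was at 0.27 (95% interval -0.64 to 1.17). With wild type replicate 1 left out, 9 members were lower and 3 higher, beside 9.08% and 8.77% of all genes. GRE1 and HBT1 passed with each array left out in turn (highest adjusted p 0.0347 and 0.0146), SPS100 did not without Δpde2Δtpk3 replicate 1 or 2 (0.0552 and 0.119), and SIP18, SPG1 and XBP1 each passed without only 2 of the 8 arrays (up to 0.232, 0.203 and 0.176, without Δpde2Δtpk3 replicate 2).

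**Figure D3:**
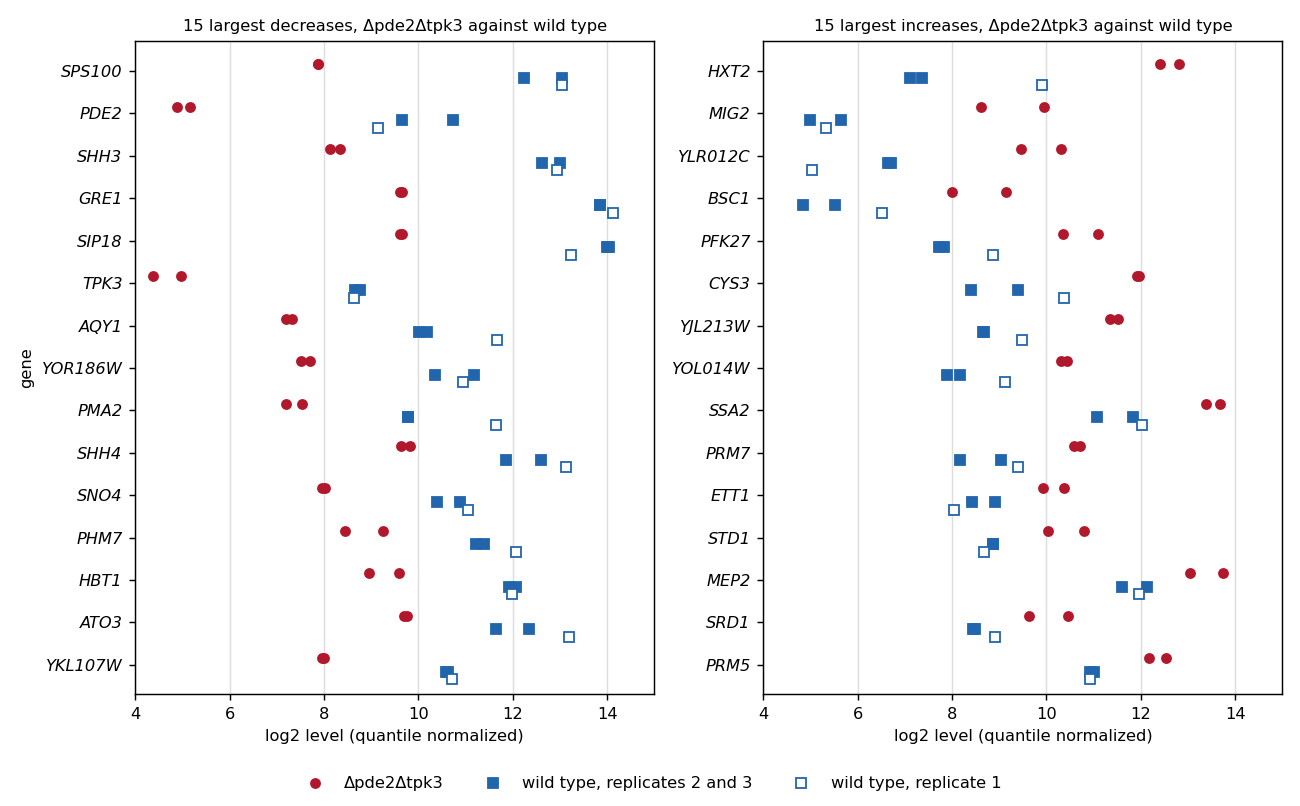
Log2 level (x axis) of the 15 genes with the largest decrease (left) and the 15 with the largest increase (right) in Δpde2Δtpk3 against wild type cells, taken from the genes that passed with no overlap of the arrays. Red circles are the 2 Δpde2Δtpk3 arrays, filled blue squares wild type replicates 2 and 3, and open squares wild type replicate 1. HXT2 in wild type cells shows the spread set by replicate 1 (9.91, against 7.36 and 7.11).

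A minority of the stress genes passed, most of them lower. On the list of 30 genes controlled by Msn2p and Msn4p, 7 were lower (1.69% of all genes), 1 was higher (1.03%) and 22 did not pass. The median was -0.12. Those lower were GRE1, SIP18, XBP1, FMP45, GND2, CTT1 and RTN2, and SSA4 was higher. GRE1, SIP18 and XBP1 are also on the stationary phase list, so the counts of both lists are not separate. CTT1 (YGR088W), the cytosolic catalase, was at 11.45 and 11.20 in Δpde2Δtpk3 and at 13.09, 12.99 and 13.01 in wild type arrays (-1.71, SE 0.12, adjusted p = 0.00205). FMP45 (YDL222C), a membrane protein of the SUR7 family next to HBT1, was at 9.74 and 9.48 in Δpde2Δtpk3 and at 12.66, 11.82 and 12.08 in wild type arrays (-2.57, SE 0.25, adjusted p = 0.00622). GND2 (YGR256W), the minor 6-phosphogluconate dehydrogenase, was at 10.52 and 10.67 in Δpde2Δtpk3 and at 12.92, 12.48 and 12.61 in wild type arrays (-2.08, SE 0.15, adjusted p = 0.00205). The groups were apart for all 3, as for 36.9% of all genes, and these 3 were picked by the same arrays. The reticulon gene RTN2 was lower too (-0.85, SE 0.16, adjusted p = 0.0415). SNO4 (YMR322C), a chaperone-like protein of the DJ-1 family that is made in stationary phase, was also lower (-2.78, SE 0.23, adjusted p = 0.00342), as was its relative HSP31 (-0.69, adjusted p = 0.0286). These genes share sequence, and how far their probes can be told apart was not tested. The list counted 9 lower and 4 higher genes without wild type replicate 1, beside 9.08% and 8.77% of all genes. CTT1 and GND2 passed whichever array was left out, FMP45 and SNO4 failed only without Δpde2Δtpk3 replicate 2 (adjusted p = 0.0944 and 0.0699), and RTN2 and HSP31 failed without 6 and 7 of the arrays (up to 0.259 and 0.197).

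The remaining leading decreases are given here gene by gene. SHH3 (YMR118C) and SHH4 (YLR164W) encode mitochondrial homologues of the membrane anchors of succinate dehydrogenase, Sdh3p and Sdh4p. SHH3 was at 8.34 and 8.12 in Δpde2Δtpk3 and at 12.93, 12.62 and 12.99 in wild type arrays (-4.62, SE 0.41, adjusted p = 0.00473), and SHH4 at 9.63 and 9.81 in Δpde2Δtpk3 and at 13.13, 11.85 and 12.60 in wild type arrays (-2.81, SE 0.36, adjusted p = 0.0156). The groups were apart for both. SDH3 and SDH4, the main genes, did not pass, with log2 fold changes of -0.28 (95% interval -0.57 to 0.02) and -0.10 (-0.40 to 0.20). AQY1 (YPR192W), the spore water channel, was at 7.20 and 7.32 in Δpde2Δtpk3 and at 11.66, 10.01 and 10.18 in wild type arrays (-3.36, SE 0.45, adjusted p = 0.0194). PMA2 (YPL036W), the minor proton pump of the plasma membrane, was at 7.53 and 7.20 in Δpde2Δtpk3 and at 11.64, 9.78 and 9.78 in wild type arrays (-3.03, SE 0.54, adjusted p = 0.0367), while the main pump PMA1 had a log2 fold change of 0.20 (95% interval -0.30 to 0.70). Wild type replicate 1 was the highest array for AQY1 and PMA2, and without it both were still lower (-2.83 and -2.42). ATO3 (YDR384C), an ammonium exporter of ageing colonies, was lower (-2.67, SE 0.40, adjusted p = 0.0232), and so was PHM7 (YOL084W), which changes with phosphate supply (-2.72, SE 0.31, adjusted p = 0.0113). The open reading frames YOR186W (-3.22, SE 0.25) and YKL107W (-2.66, SE 0.13) were the other leading decreases. SHH3, PHM7 and YOR186W failed only without Δpde2Δtpk3 replicate 2 (adjusted p = 0.0933, 0.111 and 0.0699), whereas SHH4, AQY1, PMA2 and ATO3 passed without only 2 or 3 of the 8 arrays (up to 0.136, 0.177, 0.255 and 0.197).

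Genes for the use of ethanol, acetate and fatty acids were lower in part. Of 18 genes of the glyoxylate cycle and gluconeogenesis, 3 were lower (ADH2, ACS1 and ICL2) and none was higher, beside 1.69% and 1.03% of all genes. The median was -0.39. ADH2 (YMR303C), the alcohol dehydrogenase that oxidises ethanol, was at 11.83 and 12.04 in Δpde2Δtpk3 and at 14.01, 13.80 and 13.95 in wild type arrays (-1.98, SE 0.35, adjusted p = 0.0361). ACS1 (YAL054C), an acetyl-CoA synthetase, was at 12.72 and 12.05 in Δpde2Δtpk3 and at 14.20, 13.66 and 13.90 in wild type arrays (-1.54, SE 0.28, adjusted p = 0.0410). The groups did not overlap for either, as for 36.9% of all genes. The central enzymes of both pathways did not pass: isocitrate lyase ICL1 was at -0.63 (95% interval -1.07 to -0.20, adjusted p = 0.120) and fructose-1,6-bisphosphatase FBP1 at -0.60 (SE 0.25, adjusted p = 0.247). CIT3, PDH1 and ICL2, which encode citrate and methylcitrate synthase, a methylcitrate dehydratase and methylisocitrate lyase, act in turn in the breakdown of propionate. CIT3 (YPR001W) was at 9.66 and 8.79 in Δpde2Δtpk3 and at 12.12, 11.25 and 11.73 in wild type arrays (-2.47, SE 0.32, adjusted p = 0.0175), and PDH1 (YPR002W; -1.17, SE 0.21, adjusted p = 0.0395) and ICL2 (YPR006C; -1.22, SE 0.21, adjusted p = 0.0330) were lower too. CIT3 was the only one of 14 TCA cycle genes that passed, with KGD1 lower in addition without wild type replicate 1. CIT3 did not pass without Δpde2Δtpk3 replicate 2, any Δpde2 array or wild type replicate 3 (adjusted p = 0.131 without Δpde2Δtpk3 replicate 2), and PDH1 passed only without Δpde2Δtpk3 replicate 1 or wild type replicate 1 (up to 0.212). Of 20 genes for fatty acid oxidation and carnitine, 3 were lower and none higher (1.69% and 1.03% of all genes), and the median was -0.85. All 20 had a log2 fold change below 0 (-2.55 to -0.11), beside 2722 of all 5449 genes. POX1 (YGL205W), the acyl-CoA oxidase that starts peroxisomal oxidation, was at 8.21 and 7.78 in Δpde2Δtpk3 and at 11.32, 9.83 and 10.47 in wild type arrays (-2.55, SE 0.45, adjusted p = 0.0361). FOX2, the next enzyme, was lower by -1.08 (SE 0.17) and SPS19, a dienoyl-CoA reductase, by -1.53 (SE 0.21). The peroxisomal catalase CTA1, at 11.16 and 9.42 in Δpde2Δtpk3 and at 12.58, 12.02 and 12.28 in wild type arrays, did not pass (95% interval -3.08 to -0.93, adjusted p = 0.0696). Without wild type replicate 1, 11 of these 20 and 6 of the 18 genes were lower, beside 9.08% of all genes. None of the 6 genes of both lists passed without Δpde2Δtpk3 replicate 1 or 2, Δpde2 replicate 1 or 3 or wild type replicate 3 (adjusted p up to 0.257 for ACS1, 0.255 for POX1 and 0.232 for ICL2).

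Of the mitochondrial genes outside these pathways a few passed. NDE2 (YDL085W), an external NADH dehydrogenase, was at 11.46 and 10.95 in Δpde2Δtpk3 and at 13.39, 12.78 and 13.27 in wild type arrays (-1.94, SE 0.28, adjusted p = 0.0228), and NCA3 (YJL116C), which acts on the expression of ATP synthase subunits encoded in the mitochondrion, was at 10.58 and 11.18 in Δpde2Δtpk3 and at 13.38, 12.90 and 12.73 in wild type arrays (-2.13, SE 0.31, adjusted p = 0.0228). Both passed only without Δpde2 replicate 2 or wild type replicate 1 or 2 (up to 0.197 and 0.122). Of 20 genes of complexes III and IV and cytochrome c, COX5B (YIL111W), the subunit of cytochrome c oxidase used with little oxygen, was higher (0.92, SE 0.17, adjusted p = 0.0428), none was lower and the median was 0.01, with 12 members above 0 and 8 below. Wild type replicate 1 read the list below the other wild type arrays (a difference of -0.43), and without it the median was -0.12, with 3 above 0 and 17 below, and CYC7 was higher in addition. The counterpart of COX5B, COX5A, did not pass (-0.21, 95% interval -0.47 to 0.05). None of 4 genes of complex II (-0.28 to -0.10), of 17 genes of ATP synthase (-0.38 to 0.29) or of 74 genes of the mitochondrial ribosome (-0.42 to 1.13) passed by limma, and 0, 0 and 7 of them had an unadjusted p under 0.05, beside 20.1% of all genes. With that array left out, 5 of the 74 were higher and 1 lower, beside 8.77% and 9.08% of all genes. No gene of complex II or ATP synthase then passed by limma. In that setting 1, 4 and 21 genes of complex II, ATP synthase and the mitochondrial ribosome had an unadjusted p under 0.05, beside 1876 of all 5449 genes. AAC1, a minor ADP/ATP carrier (-0.77, SE 0.13, adjusted p = 0.0330), and MBR1, which helps growth on non-fermentable carbon (-0.91, SE 0.13, adjusted p = 0.0202), were lower. With median centring or values as deposited COX5B did not pass, and with 1 array left out wild type replicate 1 was the only one whose omission let it pass (highest adjusted p 0.257, without Δpde2Δtpk3 replicate 2). AAC1 and MBR1 passed without wild type replicate 1 or 2 and in no other such case (0.232 and 0.194 at most).

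Some genes that sense and take up glucose were higher in Δpde2Δtpk3 cells. HXT2 (YMR011W), a high affinity glucose transporter, was at 12.41 and 12.82 in Δpde2Δtpk3 and at 9.91, 7.36 and 7.11 in wild type arrays (4.48, SE 0.76, adjusted p = 0.0332), and without wild type replicate 1 the difference was 5.37. MIG2 (YGL209W), a repressor made when glucose is present, was at 8.61 and 9.96 in Δpde2Δtpk3 and at 5.32, 5.66 and 4.99 in wild type arrays (3.96, SE 0.38, adjusted p = 0.00622). The wild type arrays read MIG2 close to the level of the deleted genes (4.37 to 5.17), so that its difference, and its place among the increases, is no exact size. Neither gene passed with the arrays of both strains fitted alone. MTH1 (YDR277C) and STD1 (YOR047C), partners of Rgt1p in the repression of hexose transporter genes, rose by 1.27 (SE 0.18, adjusted p = 0.0216) and 1.61 (SE 0.22, adjusted p = 0.0194), and RGT1 itself was lower (-0.81, SE 0.16, adjusted p = 0.0466). PFK27 (YOL136C), which makes the glycolytic activator fructose-2,6-bisphosphate, was at 10.35 and 11.08 in Δpde2Δtpk3 and at 8.87, 7.82 and 7.72 in wild type arrays (2.58, SE 0.37, adjusted p = 0.0224). HXT3 and HXT4, further glucose transporters, were apart between the strains and did not pass with all arrays (2.19, SE 0.45, adjusted p = 0.0556, and 1.51, SE 0.32, adjusted p = 0.0575). The low affinity transporter HXT1 was at 8.29 and 8.05 in Δpde2Δtpk3 and at 8.31, 6.83 and 6.92 in wild type arrays (0.82, 95% interval -0.17 to 1.81), which overlap. Of 28 genes of hexose transport and glucose sensing 4 were higher (1.03% of all genes), 1 was lower (1.69%) and 23 did not pass. The median of -0.02 lay at that of all genes. Without wild type replicate 1, 9 of the 28 were higher (8.77% of all genes), HXT1, HXT3 and HXT4 among them, and RGT1 was again lower. In that array the median of the list lay 0.655 above the other wild type arrays. MIG2 passed with each array left out in turn (highest adjusted p 0.0319). HXT2 and RGT1 passed only without wild type replicate 1, PFK27 only without wild type replicate 1 or 2, and MTH1 and STD1 failed without Δpde2Δtpk3 replicate 2, any Δpde2 array or wild type replicate 3 (adjusted p up to 0.237, 0.274, 0.197, 0.194 and 0.0933 in the order named).

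Heat shock genes passed in both directions. SSA2 (YLL024C), a cytosolic Hsp70 that cells make at all times, was at 13.38 and 13.68 in Δpde2Δtpk3 and at 12.01, 11.83 and 11.07 in wild type arrays (1.89, SE 0.28, adjusted p = 0.0230), with no overlap. Its near-identical relative SSA1 did not pass (0.28, SE 0.12, adjusted p = 0.247), and probes of these genes may not separate them fully. The stress-induced SSA4 was higher (0.91, SE 0.13, adjusted p = 0.0228) and the other stress-induced gene SSA3 lower (-0.78, SE 0.15, adjusted p = 0.0486). KAR2, the Hsp70 of the endoplasmic reticulum, and SIL1, its nucleotide exchange factor, were both higher (0.59, SE 0.11, and 0.64, SE 0.12). Of 27 heat shock genes 3 were higher and 2 lower (SSA3 and HSP31), beside 1.03% and 1.69% of all genes, and the median was 0.32. The counts of this list were 10 and 2 without wild type replicate 1, beside 8.77% and 9.08% of all genes. None of these genes passed without Δpde2Δtpk3 replicate 1 or 2 or any Δpde2 array, with adjusted p of up to 0.203 for SSA2, 0.195 for SSA4, 0.283 for SSA3, 0.259 for KAR2 and 0.238 for SIL1.

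The remaining leading increases and the lists that hold them are given here. CYS3 (YAL012W), which makes cysteine from cystathionine, was at 11.93 and 11.95 in Δpde2Δtpk3 and at 10.36, 9.40 and 8.41 in wild type arrays (2.55, SE 0.48, adjusted p = 0.0446). MET14, of sulphate assimilation, was higher by 0.74 (SE 0.13, adjusted p = 0.0383). CYS3 and MET14 were the only ones of 31 sulphur genes that passed, beside 2.72% of all genes (median 0.34). The 31 include MET17, the gene of the met15Δ marker that both strains carry. MEP2 (YNL142W), the ammonium permease that also signals starvation for nitrogen, was at 13.03 and 13.74 in Δpde2Δtpk3 and at 11.97, 12.13 and 11.60 in wild type arrays (1.48, SE 0.24, adjusted p = 0.0276). MEP2 was the only one of 37 genes of nitrogen catabolism and permeases that passed, beside 2.72% of all genes. Of 33 genes of the pheromone response and mating 3 were higher and none was lower, beside 1.03% and 1.69% of all genes. The median was 0.22. PRM5 (YIL117C), induced by pheromone and by cell wall stress, was at 12.17 and 12.53 in Δpde2Δtpk3 and at 10.92, 10.91 and 11.01 in wild type arrays (1.41, SE 0.15, adjusted p = 0.00779). PRM7 (YDL039C) was higher by 1.78 (SE 0.33, adjusted p = 0.0410), as was BSC1 (YDL037C), which lies near it (2.95, SE 0.50, adjusted p = 0.0336), and MFA1, which encodes the mating pheromone a-factor, by 0.79 (SE 0.15). Wild type replicate 3 read BSC1 at 4.83, in the range of the deleted genes. CHS1, the chitin synthase of wall repair, rose by 1.01 (SE 0.17, adjusted p = 0.0287), the wall stress sensor MID2 by 0.90 (SE 0.16, adjusted p = 0.0410), and HOG1, the kinase of the osmotic response, by 0.89 (SE 0.11, adjusted p = 0.0156). Of 49 cell wall genes CHS1 was higher and NCA3 lower, beside 1.03% and 1.69% of all genes. ETT1, which acts in translation termination, SRD1, a GATA-type factor for ribosomal RNA processing, and the open reading frames YLR012C, YJL213W and YOL014W complete the leading increases, at 1.68, 1.43, 3.77, 2.51 and 1.97. With 1 array left out, PRM5 and YJL213W failed only without Δpde2Δtpk3 replicate 2 (adjusted p = 0.0933 and 0.0940), and the others passed without at most 3 of the 8 arrays (up to 0.257 for CYS3, PRM7 and MID2, 0.232 for MET14, 0.195 for MEP2, 0.136 for BSC1, 0.197 for MFA1, 0.219 for CHS1, 0.122 for HOG1, 0.211 for ETT1, 0.218 for SRD1, 0.122 for YLR012C and 0.232 for YOL014W). Without wild type replicate 1, 12 of the 31 sulphur genes and 8 of the 33 mating genes were higher, and 1 gene of each list was lower. In that setting 6 nitrogen genes were higher and 2 lower, and 5 cell wall genes higher and 4 lower, beside 8.77% and 9.08% of all genes.

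Of the storage carbohydrate genes 1 passed, and of the ribosomal genes none. Of 15 glycogen genes 1 was lower, PIG1, a putative regulatory subunit for glycogen synthase phosphatase (-0.94, SE 0.17, adjusted p = 0.0410), none was higher and the median was 0.11. GSY2, the main glycogen synthase, was at 13.34 and 13.39 in Δpde2Δtpk3 and at 13.03, 13.03 and 13.04 in wild type arrays (0.33, 95% interval 0.09 to 0.57), and the glycogenin gene GLG2 at 11.22 and 10.59 in Δpde2Δtpk3 and at 11.93, 11.67 and 11.88 in wild type arrays (-0.93, 95% interval -1.39 to -0.47). The arrays were apart for both, and neither passed (adjusted p = 0.136 and 0.0580), except GSY2 without wild type replicate 1 and GLG2 without that array or Δpde2Δtpk3 replicate 1. None of 7 trehalose genes (-0.52 to 0.18), 129 cytosolic ribosomal protein genes (-0.44 to 1.18) or 106 ribosome biogenesis genes (-0.42 to 1.66) passed by limma. Their medians were 0.07, 0.10 and 0.41, and 1, 4 and 2 of them had an unadjusted p under 0.05, beside 20.1% of all genes. The median of the ribosome biogenesis list was 0.12 without wild type replicate 1. In that setting 3 glycogen genes were higher and 3 lower, 1 trehalose gene was lower, and 7 ribosomal protein and 2 biogenesis genes were higher, beside 8.77% of all genes higher and 9.08% lower. PIG1 passed with 1 array left out only where that was wild type replicate 1 or 2 (adjusted p up to 0.257, without Δpde2Δtpk3 replicate 2).

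**Figure D4:**
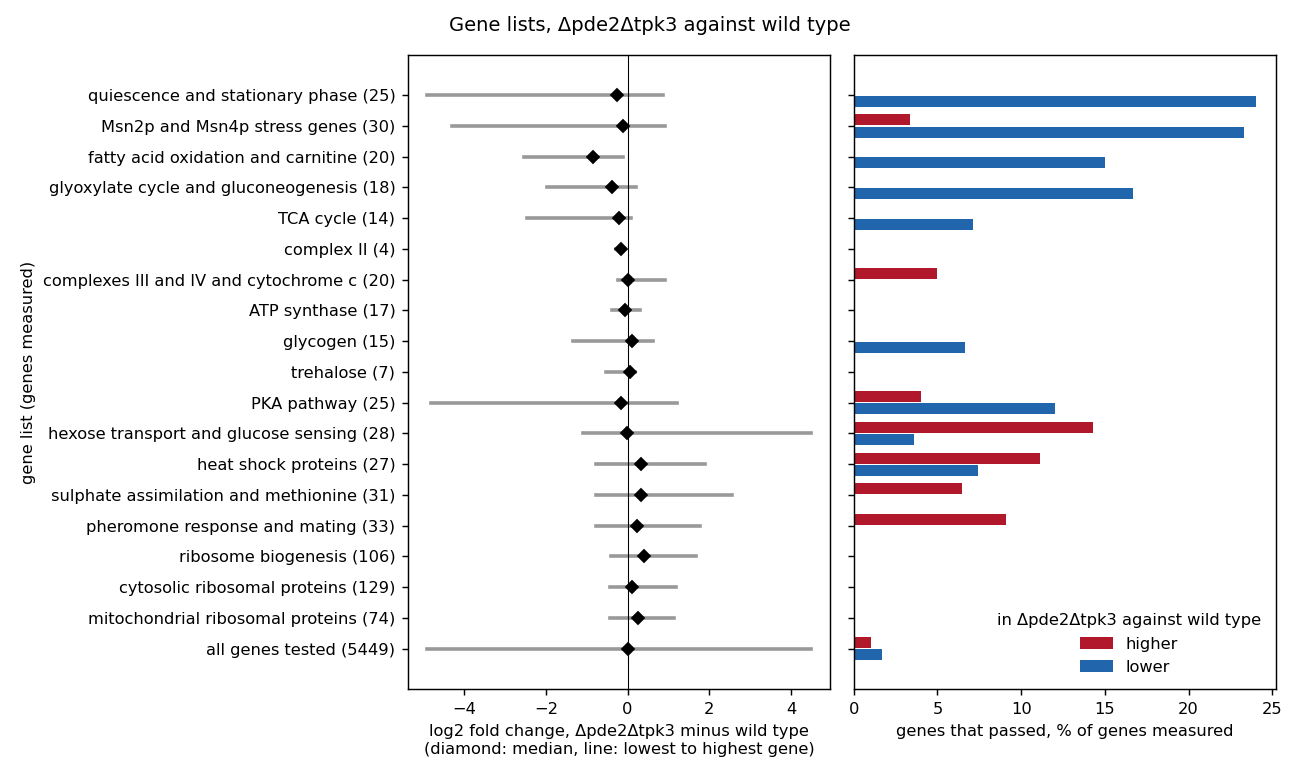
Median (diamond) and range (line) of the log2 fold change of Δpde2Δtpk3 minus wild type cells (left) and share of measured genes that were higher (red) or lower (blue) in Δpde2Δtpk3 cells (right) for 18 gene lists and for all 5449 genes tested. Genes were lower in the stationary phase (6 of 25), stress (7 of 30), glyoxylate (3 of 18) and fatty acid (3 of 20) lists. GRE1, SIP18 and XBP1 count in both the stationary phase and the stress list. Genes were higher in the glucose sensing (4 of 28) and heat shock (3 of 27) lists. In these lists 1 glucose sensing and 2 heat shock genes were lower, and 1 stress gene was higher. Of all genes 1.69% were lower and 1.03% higher.

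The Δpde2 arrays show the same genes in cells that have Tpk3p. Both mutants were set against the same 3 wild type arrays, so their differences from wild type are not independent, and values are given side by side. In Δpde2 cells 2257 genes (41.4%) passed against wild type. Of the 30 leading genes, 8 passed in the direct test of Δpde2Δtpk3 minus Δpde2 cells, in which 707 of all genes passed (13%), 404 higher (7.41%) and 303 lower (5.56%) in Δpde2Δtpk3 cells. Apart from TPK3 these were YOR186W and SHH4, higher in Δpde2Δtpk3 than in Δpde2 cells (1.64 and 1.48, adjusted p = 0.0138 and 0.0388), and MIG2, BSC1, PRM7, YJL213W and PRM5, lower (-2.30, -2.43, -1.54, -1.34 and -0.59, adjusted p = 0.0159, 0.0254, 0.0276, 0.0198 and 0.0453). MIG2 was at 8.61 and 9.96 in Δpde2Δtpk3, at 11.61, 11.47 and 11.68 in Δpde2 and at 5.32, 5.66 and 4.99 in wild type arrays, so the double mutant lay between the others. SHH4 was at 9.63 and 9.81 in Δpde2Δtpk3, at 8.02, 8.56 and 8.14 in Δpde2 and at 13.13, 11.85 and 12.60 in wild type arrays. Against wild type, NDE2 and NCA3 had log2 fold changes of -1.94 and -2.13 in Δpde2Δtpk3 cells and of -4.50 and -4.94 in Δpde2 cells, and FMP45 of -2.57 in Δpde2Δtpk3 and -4.75 in Δpde2 cells (direct difference 2.18, 95% interval 1.59 to 2.77, adjusted p = 0.00683).

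For 22 of the 30 leading genes the direct test between both mutants did not pass, which does not show that they were alike. The difference of Δpde2Δtpk3 minus Δpde2 cells had narrow intervals for YKL107W (0.14, 95% interval -0.17 to 0.44), HBT1 (0.05, -0.39 to 0.50), MEP2 (-0.03, -0.59 to 0.53), GRE1 (0.07, -0.62 to 0.76) and SSA2 (-0.09, -0.75 to 0.57). GRE1 was at 9.66 and 9.61 in Δpde2Δtpk3, at 9.31, 10.19 and 9.19 in Δpde2 and at 14.13, 13.84 and 13.85 in wild type arrays, so that the arrays of both mutants overlapped each other and lay far below wild type. The interval was wide for SIP18 (-1.53 to 1.83), for SPS100 (-0.65 to 1.86), for HXT2 (-2.92 to 0.68), for PMA2 (-0.72 to 1.80) and for CYS3 (-1.39 to 0.88). The direct test and its intervals take their spread from the fit of the 3 strains, wild type arrays included. Their width is thus not that of the mutant arrays alone. The residual SD of an array was 0.31 to 0.60 in wild type, 0.19 in Δpde2Δtpk3 and 0.10 to 0.11 in Δpde2 cells. CIT3 and ICL2 had a direct difference of -0.19 (-0.95 to 0.56) and -0.17 (-0.66 to 0.31), whereas ACS1, lower than wild type in Δpde2Δtpk3 cells by -1.54, was lower by -2.85 in Δpde2 cells and passed between the mutants (1.31, 0.65 to 1.98, adjusted p = 0.0290). Among lists, 4 of 20 fatty acid genes, 12 of 18 glyoxylate and gluconeogenesis genes, 9 of 15 glycogen genes and 18 of 30 stress genes were higher in Δpde2Δtpk3 than in Δpde2 cells (7.41% of all genes). None of these lists had a lower gene (5.56% of all genes). Other lists went the other way: 25 of 129 cytosolic ribosomal protein genes and 7 of 31 sulphur genes were lower, and none of either was higher.

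**Figure D5:**
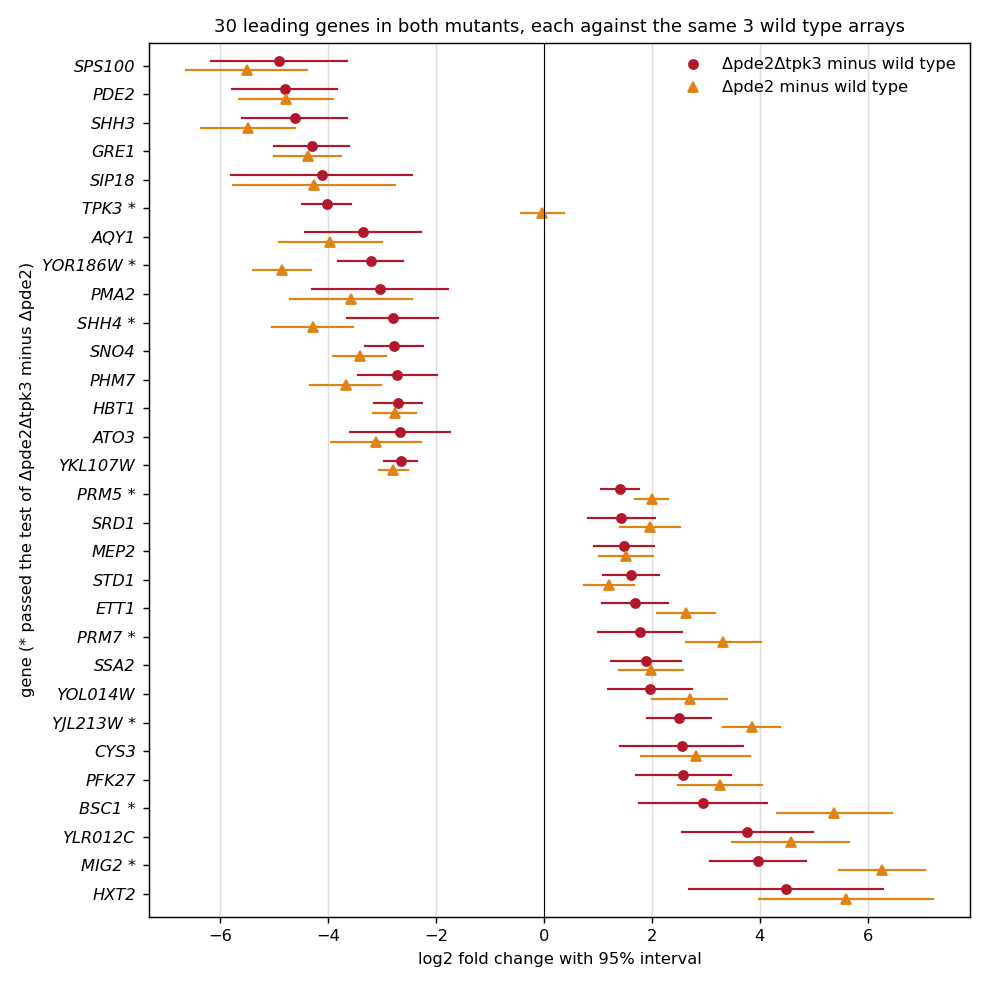
Log2 fold change with its 95% interval (x axis) for the 30 leading genes (rows) in Δpde2Δtpk3 minus wild type (red circles) and in Δpde2 minus wild type cells (orange triangles). Both use the same 3 wild type arrays, and an asterisk marks the 8 genes that passed the direct test of Δpde2Δtpk3 minus Δpde2 cells, such as TPK3, MIG2 and SHH4.

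Both Δpde2Δtpk3 arrays lay outside all arrays of both other strains for 385 genes (7.07%). A share of about this size also arises where the 8 arrays fall in random order, so it marks no trait of the strain. Of these 385 genes, 5 also passed against wild type and against Δpde2: TPK3 and 4 others, which were thus picked for the values given here. ATG10 (YLL042C), which acts in the formation of autophagosomes, was at 7.82 and 7.74 in Δpde2Δtpk3, at 8.29, 8.44 and 8.25 in Δpde2 and at 8.83, 8.68 and 8.57 in wild type arrays, and BNA4 (YBL098W), of NAD synthesis from tryptophan, was at 9.54 and 9.28 in Δpde2Δtpk3, at 10.01, 10.11 and 9.85 in Δpde2 and at 10.42, 10.19 and 10.17 in wild type arrays. MID2 (YLR332W) was at 12.08 and 12.40 in Δpde2Δtpk3, at 11.60, 11.54 and 11.64 in Δpde2 and at 11.18, 11.59 and 11.27 in wild type arrays, and YNL011C at 10.20 and 10.35 in Δpde2Δtpk3, at 9.82, 9.86 and 9.89 in Δpde2 and at 9.58, 9.54 and 9.63 in wild type arrays. The log2 fold changes against wild type were -0.91, -0.85, 0.90 and 0.69 in the order named, and those against Δpde2 were -0.55, -0.58, 0.64 and 0.42. None of the 4 passed against wild type without Δpde2Δtpk3 replicate 1 or 2, any Δpde2 array or wild type replicate 3 (adjusted p up to 0.195, 0.245, 0.257 and 0.203).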

How the data were processed

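RNA was hybridised to Affymetrix Yeast Genome 2.0 arrays. The authors deposited log2 signals for each probe set, the scale being read from the range of the values. Their normalization is not given in the sources used here, and the methods name dChip for quality control and limma for the statistics. The number of arrays limits the precision. Columns were quantile normalized with limma 3.58.1 under R 4.3.3. Of 5814 probe sets, 5498 had 1 gene, none several and 316 none, and the last were left out. Of several probe sets (47 genes) the one with the highest mean was used, and 12 symbols were updated. A single limma fit of the 3 strains (residual degrees of freedom: 5) with moderated variances was adjusted by Benjamini-Hochberg over 5449 genes. Intervals are 95% intervals of that fit.

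Genes named are the 15 most increased and 15 most decreased of those that passed without overlap of arrays, up to 4 passing and 2 other members of each of 46 measured lists, the PKA pathway, markers, neighbours of PDE2 and TPK3, and genes named earlier from these data. The members, lists and tests were chosen with earlier results of these data known. SPG1, XBP1, RGT1, KAR2, SSA1, SIL1, PMA1, FBP1, COX5A, GSY2, PDH1, HOG1, MID2, BNA4, YNL011C and the genes of the last section on sugar phosphates and isoenzymes were added after their values were seen. Lists are described by counts and medians without a test. The code was tested on simulated data. Alternatives were median centring, values as deposited, normalization without wild type replicate 1, a filter on dim genes, other uses of probe sets, fewer arrays, weights for arrays, moderation with a trend and robust, blocking on replicate, and each array left out. Promoter motifs were not searched and no sequences are shown.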

Additional observations from a re-analysis of the deposited data

Results flagged for a closer look

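Signal higher in Δpde2Δtpk3 than in wild type cells was also found in probe sets with no gene name, which no comparison above uses. They were tested in 1 limma fit with all 5814 probe sets. A control probe set for a reporter sequence was at 13.83 and 13.98 in Δpde2Δtpk3 and at 7.59, 4.58 and 4.39 in wild type arrays (8.39, SE 0.88, adjusted p = 0.00732), with wild type replicate 1 above the other wild type arrays, and at 13.86, 13.80 and 13.83 in Δpde2 arrays. Of 218 further probe sets without a gene, 3 were higher and 3 lower. Those higher had log2 fold changes of 1.21 (adjusted p = 0.0285), 0.79 (adjusted p = 0.0382) and 2.43 (adjusted p = 0.0425). The last was at 9.23 and 9.20 in Δpde2Δtpk3 and at 7.81, 6.31 and 6.24 in wild type arrays. No cause was tested for any of these probe sets.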

How the results depend on the processing

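All 148 genes kept their direction under each setting compared gene by gene (107 of them were left without the dimmest genes). They were picked by these same arrays, so this is no separate support, and the number that passed varied. Of 148 genes, with 56 higher and 92 lower in Δpde2Δtpk3 cells and 91 changed by at least 2 fold, the number became 979 (482 higher, 497 lower, 174 at 2 fold) with normalization repeated without wild type replicate 1, and 739 (366, 373 and 210) with array weights. It became 10 (0, 10 and 10) from the arrays of both strains alone and 5 (0, 5 and 5) with a replicate block. Higher genes numbered 95 with trend and robust moderation and 86 without the dimmest 33.3% of genes. At least 2 fold was reached by 294 genes with no test and by 194 with an unadjusted p under 0.05. With 1 array left out, 7 to 973 genes passed (1 to 478 higher, 6 to 495 lower, 7 to 182 at 2 fold), the lowest without Δpde2Δtpk3 replicate 2 and the highest without wild type replicate 1. Median centring gave 124 genes and values as deposited 158. The share of higher genes was 37.8% with all arrays and 49.1% without wild type replicate 1. PDE2 did not pass from the arrays of both strains alone (-4.81), with a replicate block (-4.89) or without Δpde2Δtpk3 replicate 2 (-4.67, in a range of -5.16 to -4.36 with 1 array left out). TPK2, which did not pass with any array left out, had values from -0.17 to 0.079 then, and was above 0 without Δpde2Δtpk3 replicate 2 (0.079) or wild type replicate 3 (0.02). The causes were not tested. Deviations of same-numbered Δpde2Δtpk3 and wild type arrays correlated at -0.03 and 0.12, and those of Δpde2Δtpk3 and Δpde2 replicates 2 at 0.19. Deviations of 2 Δpde2Δtpk3 arrays mirror each other, so these values cannot show whether same-numbered samples share a batch. With 2 Δpde2Δtpk3 arrays, leaving out either leaves 1, which is then assumed to vary like the other strains. A search for promoter motifs was not run.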

Other observations

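Genes of the pentose phosphate pathway, which makes NADPH and sugar phosphates, were looked at after their values were seen and are described without a further test. The minor isoenzymes GND2, TKL2 and NQM1 were lower in Δpde2Δtpk3 than in wild type cells, and no count over the whole pathway was made. SOL4, a gene of the same pathway on the stress list, did not pass. GND2 was lower by a log2 fold change of -2.08, TKL2, the minor transketolase, was at 9.38 and 9.29 in Δpde2Δtpk3 and at 12.52, 11.93 and 11.50 in wild type arrays (-2.65, SE 0.27, adjusted p = 0.00759, limma), and NQM1, the minor transaldolase, was at -0.91 (SE 0.14, adjusted p = 0.0266). RKI1, the ribose-5-phosphate isomerase, was lower too (-1.03, SE 0.15, adjusted p = 0.0228). The main isoenzymes did not pass: GND1 was at 12.26 and 12.20 in Δpde2Δtpk3 and at 11.94, 11.56 and 11.35 in wild type arrays (0.61, adjusted p = 0.115), TKL1 at 0.50 (adjusted p = 0.177) and TAL1 at -0.12 (adjusted p = 0.652). TKL2 did not pass without Δpde2Δtpk3 replicate 2 (0.110), while NQM1 passed in 1 such case (without wild type replicate 1) and RKI1 in 2 (without wild type replicate 1 or 2), with a highest adjusted p of 0.203 and 0.197. GND1 and TKL1 passed, as higher, without wild type replicate 1 (0.77 and 0.60).

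Some other genes with a more abundant relative were also lower. HEF3, a relative of translation elongation factor 3, was lower (-1.29, SE 0.15, adjusted p = 0.0122), against 0.56 (adjusted p = 0.207) for the main gene YEF3. AAC1 had -0.77, against 0.06 (adjusted p = 0.783) for the main carrier PET9. GDH3, the glutamate dehydrogenase of growth without glucose, was at 12.57 and 12.67 in Δpde2Δtpk3 and at 13.94, 13.74 and 13.77 in wild type arrays (-1.20, SE 0.13, adjusted p = 0.00887). These examples were picked by eye, and no count of all such gene pairs was made.

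Amino acid and vitamin genes held a few further decreases. ARG1 (argininosuccinate synthetase) was at 10.68 and 10.87 in Δpde2Δtpk3 and at 12.43, 12.17 and 12.17 in wild type arrays (-1.48, SE 0.14, adjusted p = 0.00622), and LYS20 (homocitrate synthase) at -1.26 (SE 0.15, adjusted p = 0.0122). SNZ3 and SNO3, neighbours that act in vitamin B6 synthesis, were at -1.06 and -0.87 (adjusted p = 0.0194 and 0.0156). TRR1, the cytosolic thioredoxin reductase, was higher (0.84, SE 0.13, adjusted p = 0.0233). None of HEF3, GDH3, ARG1, LYS20, SNZ3, SNO3 and TRR1 passed without Δpde2Δtpk3 replicate 2 (adjusted p = 0.119, 0.0963, 0.0699, 0.0944, 0.154, 0.131 and 0.197 in the order named), and ARG1 was the only one that passed with each other array left out. Of 62 genes of amino acid synthesis 1 was higher and 3 lower (1.03% and 1.69% of all genes), with a median of -0.01. SNZ3 and SNO3 were the 2 of 19 thiamine genes that passed, beside 2.72% of all genes (median -0.59). Wild type replicate 1 read this list 0.70 above the other wild type arrays, and without it 8 thiamine genes were lower and 1 higher, and the median was -0.33. Of 32 genes of purine and pyrimidine synthesis GCV1 was higher and none was lower (median 0.44), and of 29 autophagy genes ATG10 and ATG34 were lower (median -0.16). With wild type replicate 1 left out, 8 amino acid genes were higher and 7 lower (median 0.04), 9 purine and pyrimidine genes higher and 1 lower (0.43), and 6 autophagy genes lower and none higher (-0.13), beside 8.77% of all genes higher and 9.08% lower.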
